A study of Mus musculus with 3 samples.

Results

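The genes described here encode the V1 sector of the vacuolar proton pump (V-ATPase). They are Atp6v1a, Atp6v1b2, Atp6v1c1, Atp6v1d, Atp6v1e1, Atp6v1f, Atp6v1g1, Atp6v1g2 and Atp6v1h, 9 of the 21900 coding genes of the RefSeq annotation. They were chosen by name as V1 subunit genes, and their regions were those that the authors' tables assigned to these gene symbols. That rule took 9 of 15286 deposited regions: 1 of 451 in replicate 1, 0 of 1641 in replicate 2 and 8 of 13194 in replicate 3.

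The data are chromatin immunoprecipitation and sequencing (ChIP-seq) for Runx1, a transcription factor that binds DNA and is best known from blood cells and their myeloid lineage, in spinal cord. The series title concerns microglia, the macrophages of the nervous system, in opioid analgesia and withdrawal. All 3 replicates were spinal cord cells of male C57BL/6J mice, 8 to 10 weeks old, with no treatment or genotype given in the labels and no comparison group. Each immunoprecipitation used about 10 µg of chromatin pooled from 10 cords and 9 µg of a rabbit polyclonal antibody, and the labels do not say whether cords were shared between replicates. The labels' protocol describes no sorting of cells by type, so the cell type behind a region is not known. Depth is unknown beyond the pileups below, since no read totals were used here.

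The V-ATPase is a rotary enzyme that pumps protons into lysosomes, endosomes and synaptic vesicles. Its V1 sector lies in the cytosol and hydrolyses ATP, and its V0 sector lies in the membrane and carries the protons. V1 can detach from V0 and rejoin it, which switches the pump off and on. In nervous tissue the pump is known for filling synaptic vesicles, through the proton gradient that drives transmitter uptake, and for lysosomal degradation in glia, microglia included.

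Runx1 regions lay at the starts of nearly all of the 9 V1 genes listed above in replicate 3, and at almost none in the other replicates. Left out of the 9 are 4 other V1 isoform genes, described below, none with an assigned region. In replicate 3, 8 of the 9 genes had an assigned region (88.9%), beside 31.0% of all coding genes. In replicate 1 only Atp6v1h had one (1 of 9, 11.1%, beside 1.49% of coding genes). In replicate 2 no V1 gene had one (0 of 9, beside 5.10%). Only Atp6v1h had a region in at least 2 replicates (1 of 9, beside 5.37% of coding genes), so the other 7 genes with a region rest on replicate 3 alone. Every V1 region carried the authors' label for promoters, at most 1 kb from a transcript start. That label was also on 62.6% of all regions of replicate 3 and 82.7% of those of replicate 1. A gene without a region was not shown to lack binding.

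The authors' fold over background at a region's strongest summit (the base with the highest enrichment) had a median of 4.86, 4.01 and 3.81 in replicates 1, 2 and 3. Folds and ranks below describe a region within its own list. The pileup, the number of fragments over the summit, and the background level were solved from the deposited fold and p.

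The promoter sequences below are the 250 bases before the start of 3 V1 genes from RefSeq (GRCm38.p6), shown because they lie inside the replicate 3 regions and hold an E-box, ETS core or Runx core. The commoner Sp box was also searched and is not marked, and the Atp6v1d promoter, whose bases before the start held an Sp box only, is not shown. They are written 5′ to 3′ on the strand of the gene. Capitals mark the extended E-box TCACGTGA in Atp6v1a (chr16:44139260-44139509, minus strand), the ETS core CGGAAG on either strand in Atp6v1e1 (chr6:120822699-120822948, minus strand) and the Runx core TGTGGT in Atp6v1f (chr6:29467533-29467782, plus strand).
Atp6v1a: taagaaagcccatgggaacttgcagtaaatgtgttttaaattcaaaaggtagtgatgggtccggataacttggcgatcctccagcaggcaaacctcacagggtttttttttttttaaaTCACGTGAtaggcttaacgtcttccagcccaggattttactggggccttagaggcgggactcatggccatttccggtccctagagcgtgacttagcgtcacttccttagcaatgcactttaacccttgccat
Atp6v1e1: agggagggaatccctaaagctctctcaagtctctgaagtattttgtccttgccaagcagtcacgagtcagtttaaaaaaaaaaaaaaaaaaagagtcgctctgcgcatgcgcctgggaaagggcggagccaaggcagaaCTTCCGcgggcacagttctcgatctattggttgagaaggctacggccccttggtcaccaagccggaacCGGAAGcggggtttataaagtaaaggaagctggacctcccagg
Atp6v1f: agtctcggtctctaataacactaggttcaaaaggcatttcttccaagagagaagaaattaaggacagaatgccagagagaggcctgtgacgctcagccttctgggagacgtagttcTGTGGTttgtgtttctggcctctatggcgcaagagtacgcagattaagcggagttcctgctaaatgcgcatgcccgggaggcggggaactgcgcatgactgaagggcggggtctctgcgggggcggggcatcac

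The catalytic core of V1 is a ring of alternating A and B subunits, which bind ATP. Atp6v1a encodes subunit A, the catalytic subunit, and among the 9 V1 genes it was the only one with no assigned region in any replicate. A region of replicate 3 nevertheless covered its start, on chromosome 16 (44138830 to 44139831, GRCm38). The authors assigned that region to Naa50, an N-terminal acetyltransferase gene that starts on the opposite strand 89 bp from the outermost RefSeq start of Atp6v1a. Of its 1002 bp, 873 bp lay on the RefSeq span of Atp6v1a and 41 bp on that of Naa50. The strongest of its 3 summits had a fold of 6.69, with a pileup of 53 fragments over a background of 7.08. It lay 90 bp inside Atp6v1a from the RefSeq promoter start, which is further in than the outermost start. From the outermost start it lay 533 bp inside. The other summits had folds of 2.85 and 2.84, and the last of these lay 541 bp before the promoter start, within the Naa50 span. The strongest signal of the region thus sat on the Atp6v1a side. By overlap with 1 kb either side of the RefSeq start, all 9 V1 genes had a region in replicate 3. No share of all coding genes is given for that rule. For the wider rule of the gene body and 1 kb around it, the share was 36.5%.

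Atp6v1b2 encodes the B subunit of brain and most other tissues. Its replicate 3 region on chromosome 8 (69088450 to 69089117) had summits with folds of 4.08 and 3.90, at 21 bp and 255 bp inside the authors' transcript. The stronger summit had 30 fragments over a background of 6.60. This was close to the median of the list, with a rank at the 59.1 percentile of fold. The RefSeq span of Slc18a1, a vesicular monoamine transporter gene, covers the whole 668 bp of this region, so the region cannot be tied to Atp6v1b2 alone.

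Atp6v1d and Atp6v1f encode subunits of the central stalk, the rotor that turns inside the ring. Atp6v1f had a replicate 3 region on chromosome 6 (29467498 to 29468123) with a single summit 139 bp inside the transcript. Its fold was 5.63, from 37 fragments over a background of 5.75, at the 86.8 percentile. Atp6v1d had a region of 1001 bp on chromosome 12 (78861261 to 78862261) with folds of 3.35 and 3.15 at its summits. Its strongest summit had 45 fragments, as many as that of Atp6v1g2, but over a background of 12.7 against 8.02. The Atp6v1d background was the highest of the 9 regions and its fold stood at only the 30.2 percentile. The Atp6v1d region also ran 190 bp into Eif2s1, a translation initiation factor gene that starts 64 bp away on the opposite strand, and its weaker summit lay 540 bp before the Atp6v1d transcript.

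The peripheral stalks, made of subunits E and G, hold the ring still against the rotor. Atp6v1g1, the G subunit of most tissues, had its region on chromosome 4 (63544433 to 63545043), where the fold was 6.59, from 46 fragments over a background of 6.13. Its summit lay 93 bp before the transcript, at the 93.3 percentile. Atp6v1g2, the neuronal G subunit, had one on chromosome 17 (35235598 to 35236458), where the fold was 5.10, from 45 fragments over 8.02, at the 80.7 percentile. All 861 bp of the Atp6v1g2 region also lay on the RefSeq span of Nfkbil1, which runs on the opposite strand. An Nfkbil1 start lay inside the region, 53 bp from its single summit, so the region cannot be tied to Atp6v1g2 alone. Both G subunit regions ranked in the upper part of the list.

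Atp6v1e1, the E subunit of most tissues, had the weakest region of the V1 genes. It lay on chromosome 6 (120822354 to 120823029), with summits of folds 2.89 and 2.63. The stronger had 21 fragments over a background of 6.60, a −log10 q of 3.03 and a rank at the 9.96 percentile, and it was the only V1 region of replicate 3 that did not pass a q of 1e-05. The other summit, at a −log10 q of 2.13, was near the lowest value of the list, 2.00.

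Atp6v1c1 encodes subunit C, which bridges the stalks and leaves the complex when V1 detaches. Its region on chromosome 15 (38661642 to 38662166) was the narrowest of the V1 regions of replicate 3 (525 bp) and had a single summit 42 bp before the transcript. The fold was 9.37, from 57 fragments over a background of 5.19. At the 98.5 percentile it was among the 198 regions of that list with the highest folds, and it had no counterpart in the other replicates. The nearest regions lay 191 kb from its start in replicate 1 and 361 kb in replicate 2. Of all replicate 3 regions with folds of 8 to 12, 19.4% overlapped replicate 1 and 52.8% replicate 2.

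Atp6v1h encodes subunit H, which couples ATP hydrolysis to proton flow and keeps detached V1 from hydrolysing ATP. It had the highest fold of the V1 genes and was the only one with a region in 2 replicates. In replicate 1 the fold was 7.44, from 38 fragments over a background of 4.25, on chromosome 1 (5082919 to 5083425). In replicate 3 the fold was 12.4, from 76 fragments over 5.19 (5082859 to 5083511). The replicate 1 region lay wholly within the replicate 3 region and covered 77.6% of it, and the summits were 15 bp apart, 4 bp before and 11 bp inside the transcript. Only 46 of the 13194 regions of replicate 3, and 47 of the 451 of replicate 1, had a fold as high or higher, this gene's own region counted. The nearest region of replicate 2 lay 4861 kb from its start. Replicate 2 had a counterpart for 33 of those 46 (71.7%) and for 35 of those 47 (74.5%), so most regions of this rank were found there and Atp6v1h was not.

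**Figure D1:**
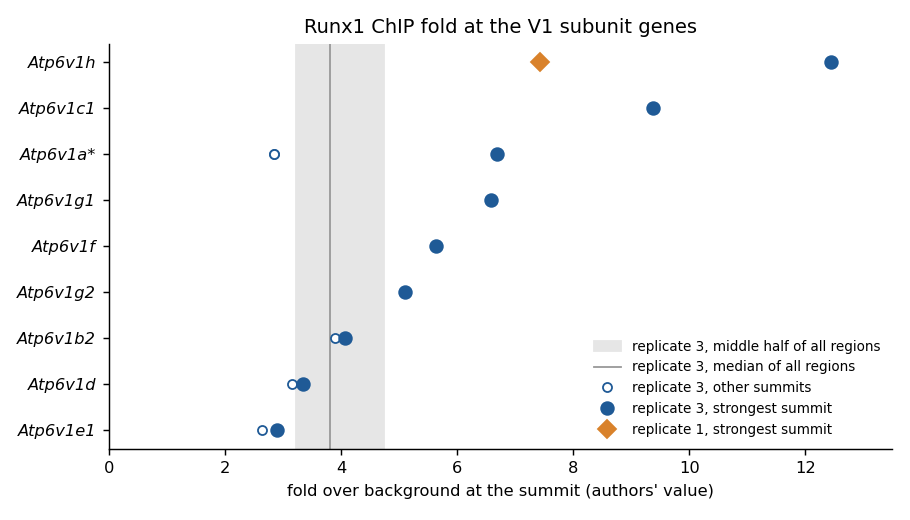
The authors' fold over background at each summit of the V1 regions (horizontal axis, ratio), by gene, with filled points for the strongest summit, open points for other summits and a diamond for replicate 1. The grey line and band are the median (3.81) and the quartiles (3.22 and 4.74) of all replicate 3 regions. The asterisk marks Atp6v1a, whose region the authors assigned to Naa50. Of the 9 strongest summits of replicate 3, 6 lie above the band.

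Over the 8 regions that replicate 3 assigned to V1 genes, the fold ranged from 2.89 to 12.4 with a median of 5.37, beside a median of 3.84 over the 8256 regions of the promoter class. The strongest summits had 21 to 76 fragments, with a median of 45 beside 27 in that class. Backgrounds ranged from 5.19 to 12.7 with a median of 6.37, beside 6.13. The regions with the highest folds, Atp6v1h and Atp6v1c1, had both the highest pileups (76 and 57) and the lowest background of the set (5.19). In rank, 6 of the 8 regions stood above the 50 percentile of fold in the whole list, and the median stood at the 83.8 percentile. The regions were 525 to 1001 bp wide, with a median of 660.5 bp beside 512 bp in the promoter class. Of the 8, 5 had a single summit, with folds of 5.10 to 12.4, and the 3 with several summits (Atp6v1b2, Atp6v1d and Atp6v1e1) had the lowest folds. The Atp6v1a region, assigned to Naa50 and outside these 8, had 3 summits and a fold of 6.69. That was above the folds of the single-summit regions of Atp6v1f, Atp6v1g1 and Atp6v1g2. In the promoter class 33.4% of regions had several summits.

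**Figure D2:**
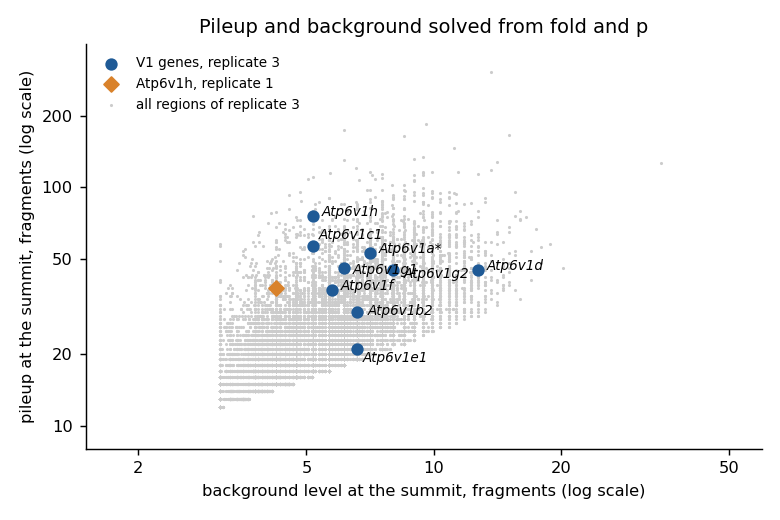
Pileup (vertical axis) against background level (horizontal axis) at the strongest summit, both in fragments on log scales, for the V1 regions of replicate 3, for Atp6v1h in replicate 1 and for all 13194 regions of replicate 3 (grey). Atp6v1h stands highest at 76 fragments, and Atp6v1d lies to the right of the others at a background of 12.7. The asterisk marks the region the authors assigned to Naa50.

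The strongest summits lay close to the transcript starts. All 8 assigned regions carried the promoter label, which already sets a region near a start. No such distance is given for other promoter regions, so this is a description only. Relative to the start of the authors' transcript, the strongest summits of the 8 assigned replicate 3 regions lay between 93 bp before it (Atp6v1g1) and 139 bp inside it (Atp6v1f). Relative to the outermost start in the RefSeq annotation, 7 of 8 lay within 500 bp. The exception was Atp6v1g2, at 908 bp, whose RefSeq span begins well before the transcript the authors used. The Atp6v1a summit, outside these 8, lay 533 bp from its outermost start.

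**Figure D3:**
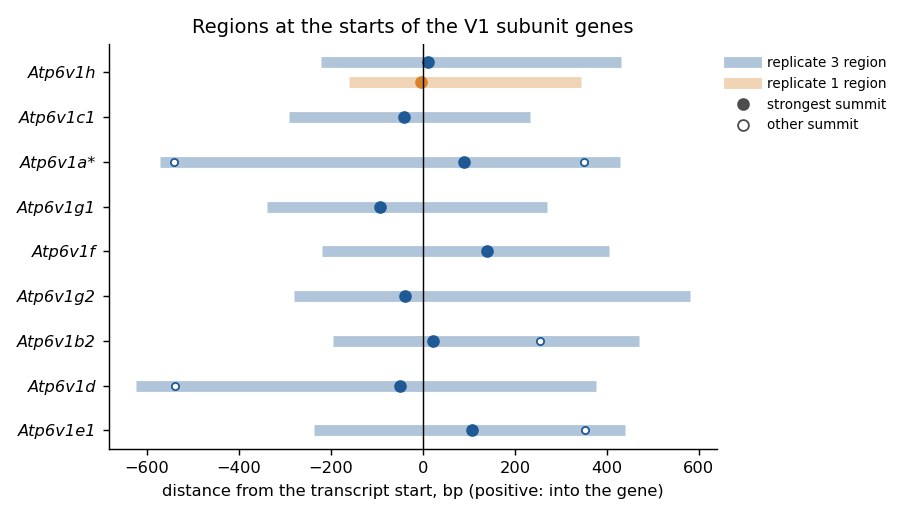
Regions (bars) and summits (points) at the V1 genes, as distance in bp from the transcript start (horizontal axis, positive into the gene), for replicate 3 (blue) and replicate 1 (orange). The start is that of the authors' transcript, and for Atp6v1a (asterisk) that of the RefSeq promoter. From the outermost RefSeq start of Atp6v1a its strongest summit lay 533 bp inside. The strongest summits (filled) lie between 93 bp before and 139 bp inside the start, and the outlying open points at 540 bp and 541 bp before it belong to Atp6v1d and Atp6v1a.

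Replicate 2 had no region near any of the 9 V1 genes, and its list was longer than that of replicate 1. Only 5.10% of all coding genes had an assigned region in replicate 2, so nothing is read from 0 of 9 genes. The nearest regions of replicate 2 lay 69.6 to 4861 kb from the 9 RefSeq starts, with a median of 661 kb. No such distance is given for other genes. The share of replicate 3 regions with a counterpart in replicate 2 was higher at higher folds in replicate 3. It was 3.96% below a fold of 4 and 12.4% between 4 and 6, then 32.3% between 6 and 8, 52.8% between 8 and 12 and 74.6% at 12 or more. The V1 regions fell in all of these classes, including Atp6v1g1 and the Atp6v1a region between 6 and 8, and none overlapped replicate 2. For replicate 1 the shares were lower in every class, 1.14% below 4 and 37.3% at 12 or more. Whether the difference between replicates at these genes came from the immunoprecipitation, the cells or the depth was not tested.

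**Figure D4:**
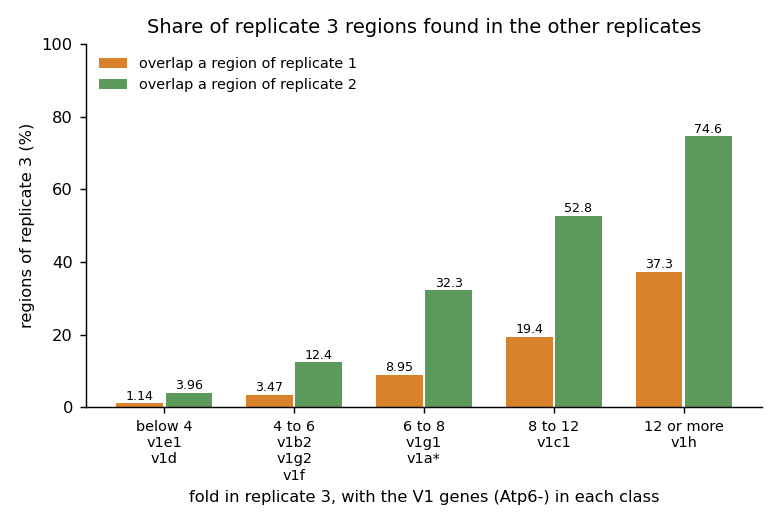
Share of replicate 3 regions (vertical axis, percent) that overlap a region of replicate 1 or replicate 2 by at least 1 bp, by class of fold in replicate 3 (horizontal axis), with the V1 genes of each class named under it without the prefix Atp6. At a fold of 12 or more, the class of Atp6v1h, 37.3% overlapped replicate 1 and 74.6% replicate 2. The asterisk marks the region the authors assigned to Naa50.

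The other isoform genes of V1 had no regions. They are Atp6v1b1 and Atp6v1g3, known from acid-secreting cells of the kidney, Atp6v1c2, known from kidney and lung, and Atp6v1e2, known from testis. None of these 4 genes had an assigned region in any replicate, against 8 of the 9 genes for the subunits of brain and most tissues in replicate 3. Over all coding genes the shares were 1.49%, 5.10% and 31.0% in replicates 1, 2 and 3, and nothing is read from a count over 4 genes. Both lists were chosen with earlier results of these data known, and the difference was not tested.

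The V0 and accessory genes had regions in more replicates, by count, than the 9 V1 genes. The lists were not built alike. The V0 list keeps all isoforms, and 4 of its 12 genes had no region in any replicate. The V1 list leaves out its 4 other isoforms, none of which had a region. Shares of these lists are therefore not on equal terms. In replicate 3, 8 of 9 V1 genes (88.9%) and 8 of 12 V0 and accessory genes (66.7%) had a region, beside 31.0% of coding genes. In replicate 2 these counts were 0 of 9 and 4 of 12, beside 5.10%, and in replicate 1 they were 1 of 9 and 2 of 12, beside 1.49%. In at least 2 replicates, 1 V1 gene and 4 V0 genes had one, beside 5.37% of coding genes. The V0 genes were Atp6v0b and Atp6v0c, of the proton-carrying ring, Atp6v0d1, which joins the ring to the V1 stalk, and Atp6v0a1, of the proton channel beside the ring. In replicate 3 the strongest folds were 12.4 for Atp6v1h and 9.37 for Atp6v1c1, against 9.41 for Atp6v0b, 9.05 for Atp6v0c and 7.90 for Atp6v0d1. The V0 genes were in replicate 2 at folds of 3.34, 3.40 and 5.97 for these 3, where Atp6v1h and Atp6v1c1 had no region. The medians of fold over the genes with a region were 5.37 for V1 and 3.72 for V0. These medians cover unlike classes of location. All V1 regions were of the promoter class, whereas the V0 set included an exon region (fold 3.51) and an intron region (2.85). No V0 median within the promoter class is given. No test of the difference was made.

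**Figure D5:**
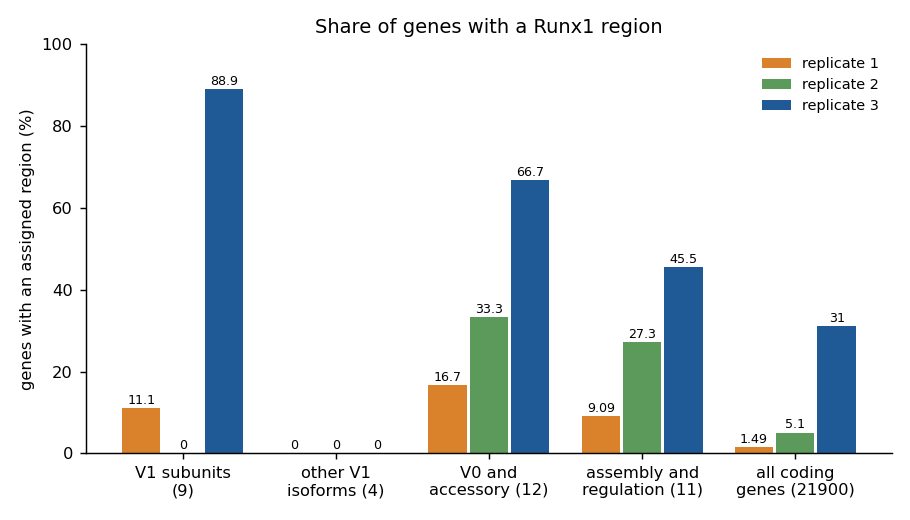
Share of genes with an assigned region (vertical axis, percent) in each replicate, for the 9 V1 subunit genes, the 4 other V1 isoforms, 12 V0 and accessory genes, 11 assembly and regulation genes and all 21900 coding genes. The 9 V1 subunit genes reach 88.9% in replicate 3 and 0% in replicate 2. Other V1 isoforms are shown apart, while the V0 list keeps all of its isoforms.

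The RefSeq promoter table (250 bases before to 50 after a start) held 6 promoters of 5 of the 9 V1 genes, Atp6v1a, Atp6v1d, Atp6v1e1, Atp6v1f and Atp6v1g2, the last with 2 starts. CpG dinucleotides, which are dense in many promoters of broadly expressed genes, numbered 10 in Atp6v1a, 21 in Atp6v1d, 16 in Atp6v1e1, 17 in Atp6v1f and 13 and 12 at the starts of Atp6v1g2. The median was 13 over all 21263 coding promoters and 21 over those of genes with a replicate 3 region. Among the 10408 coding genes with a promoter of at least 10 CpG, the lowest count here, 47.5% had a region in replicate 3, against 31.0% of all coding genes. All 5 genes had an assigned region or, for Atp6v1a, an overlapping one. Of the isoforms without a region, Atp6v1b1 and Atp6v1g3 had 3 and 2 CpG, and Atp6v1c2 and Atp6v1e2 had 22 and 10.

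Motifs were searched on both strands of these 300-base windows. The E-box CACGTG, the core bound by MiT/TFE factors at lysosomal genes, was found in 1 of the 6 V1 promoters (Atp6v1a), in 7.84% of all coding promoters and in 11.2% of those of genes with a replicate 3 region. In Atp6v1a it lay inside the longer form TCACGTGA, which contains it and occurred in 1.23% of coding promoters and 2.33% of those with a replicate 3 region, 128.5 bp before the promoter start and 218.5 bp from the strongest summit. The CLEAR palindrome, which extends this form further, was in none of the 6, in 0.419% of coding promoters and in 0.870% of those with a replicate 3 region. The Runx core TGTGGT was in Atp6v1f, 205.5 bp from the summit, and at one start of Atp6v1g2, outside the region. It was in 15.0% of all coding promoters and 11.8% of those of genes with a replicate 3 region. The other Runx form searched, TGCGGT, was in none of the 6, in 7.44% of coding promoters and in 10.2% of those with a replicate 3 region. The ETS core CGGAAG was in Atp6v1d and in both marked places of Atp6v1e1, 52.5 and 120.5 bp from its summit, beside 21.1% of coding promoters and 29.9% of those with a replicate 3 region. The Sp box GGGCGG was in 4 of the 6, beside 46.2% of coding promoters and 62.2% of those with a replicate 3 region, a share near that of the V1 promoters. Each match describes letters in a window and not a bound site, and the sequence under most summits was not used here.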

How the data were processed

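Runx1 ChIP-seq of mouse spinal cord was deposited as 3 replicates of 1 group. Per the submitters' processing notes, the tools were MACS2 2.1.2, Bowtie2, Picard 2.18.26, Trimmomatic 0.38, SAMtools 1.9 and FastQC, on build GRCm38. The tools' settings and the peak-calling control are items not given in the sources used here. Peaks were listed per replicate. For each summit the deposited lists give a score (10 times the −log10 q, cut to a whole number), −log10 p, −log10 q and the fold, a ratio to background, all from the authors' peak caller. The authors' annotated tables add an assigned gene and a class of location. Replicate 3 was grouped by its title, because its tissue field names the antibody instead.

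Regions with several summits were counted once, at the fold of the strongest, and starts are given counted from 1. Pileup and background were solved from fold and −log10 p under a Poisson model, with a whole-number solution within 0.001 for 100% of replicate 3 regions. The solver was tested on simulated data. Coding genes and starts came from RefSeq (GRCm38.p6), where 97.9%, 98.6% and 97.6% of the coding symbols of replicates 1, 2 and 3 matched. With 1 group no test between groups was possible, and no p is given. The V1 genes and the lists were chosen with earlier results of these data known. All 9 V1 genes are named, all other isoforms, and genes of the other lists with a region in at least 2 replicates. Alternatives were other limits, gene assignments, list lengths, overlaps and start sites, and leaving out each replicate. The software was matplotlib 3.10.9, scipy 1.17.1, pandas 2.3.3 and numpy 2.4.6 under Python 3.11.15.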

Additional observations from a re-analysis of the deposited data

How the results depend on the processing

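The 8 V1 genes of replicate 3 became 5 at a fold of 5 or more (Atp6v1c1, Atp6v1f, Atp6v1g1, Atp6v1g2 and Atp6v1h). They became 2 among the 451 regions of lowest q (Atp6v1c1 and Atp6v1h), where fewer regions were tested by construction, and 7 at a q of 1e-05. By overlap with the RefSeq gene body or 1 kb around it there were 9, where 36.5% of coding genes had a region. By overlap with 1 kb either side of the RefSeq start there were also 9. No share of coding genes is given for the start overlap, the fold, the q or the 451 regions. Those counts therefore have no background beside them. The count in at least 2 replicates and the count with overlapping regions were each 1, and ranged from 0 to 1 on leaving out each replicate in turn: 0 without replicate 1, 1 without replicate 2 and 0 without replicate 3. Of 38 alternatives, 6 moved a count or median by more than 1.5 times and 32 did not. Some of the 32 could not move, since a stricter limit cannot raise the replicate 2 count of 0. Nor can leaving out replicate 2 change counts to which it adds no gene. The tally is therefore not a measure of stability. Measuring from the start of the authors' transcript was chosen after the data were seen. No paired analysis was possible because all replicates belong to 1 group. Depth is unknown, so an absent region in replicate 1 or 2 does not show absent binding.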

Other observations

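Of 11 genes for assembly and regulation of the pump, 5 had a region in replicate 3 (45.5%), beside 8 of 9 V1 genes (88.9%) and 31.0% of all coding genes. Those with a region in at least 2 replicates were Oxr1 and Ncoa7 (2 of 11, beside 5.37% of coding genes). They encode TLDc-domain proteins known to act on the V-ATPase. At its strongest region, Oxr1 had folds of 4.67, 3.80 and 7.07 in replicates 1, 2 and 3, and Ncoa7 had 4.63 and 4.65 in replicates 2 and 3. The Oxr1 region was labelled at most 1 kb from a start in replicate 1 and 1 to 2 kb in replicates 2 and 3. Oxr1 had 3 regions in replicate 3 and Ncoa7 had 2. Whether these regions overlap between replicates is not given here. No difference between these lists was tested.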
